A study of Mus musculus with 2 samples.

Results

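The genes described here carry glucose into the cell, break it down to pyruvate and lactate, export the lactate, gate the entry of pyruvate into mitochondria and store glucose as glycogen. They were chosen by name as 42 genes, with earlier results of these data known, and every probe set annotated to exactly 1 of these symbols was taken. Of the 42 genes, 39 had such a probe set, 79 probe sets in all among the 45101 of the array, and 3 (Gpi1, Pfkfb1 and Eno1) had none in the annotation used here. The samples were cultures of Neuro2a, an established mouse neuroblastoma line, transfected either with a small interfering RNA (siRNA) against Tmem132a (mKIAA1583) or with a non-specific control siRNA. Each was measured on 1 Affymetrix Mouse Genome 430 2.0 array, which reads a transcript with sets of short probes. The dose of siRNA and the time after transfection are not given in the sources used here, nor whether further cultures were made. With 1 array per group no value has a replicate error and no test was possible, so differences are described by their size.

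Values are MAS5 signals, a linear measure of probe-set brightness, and differences are log2 ratios with the Tmem132a siRNA on top and the control siRNA below, so that -1 is a 2-fold lower signal in cells given the Tmem132a siRNA. A gene's ratio is the mean over its probe sets whose mean signal reached the median of all probe sets (77.25), a filter that removes dim and erratic probe sets. Of the 76 member probe sets that are not array controls, 60 passed, which gave a ratio to 33 of the 42 genes. A further 5 genes had only dim probe sets, and Gapdh was read from 3 control probe sets and is given apart. Only 2 of the 60 probe sets passed with 1 array below the filter, 1 each of Pdk1 and Pgm1. Signals of different probe sets depend on their probes, so levels are compared only between arrays and never between genes. Where a gene had several probe sets, their spread is the only error available. Over all genes it amounted to an SD of 0.39 on the log2 scale, and it covers the reading of the same RNA samples, not variation between cultures.

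The targeted gene was at 435.6 on the Tmem132a siRNA array, against 1825.5 on the control siRNA array, 23.9% of the control level. The title and treatment of that sample name the Tmem132a siRNA, while its free-text description speaks of the control siRNA, and the samples were grouped by title. Beta-actin (Actb) was at 36638.9 and 36421.8 (ratio 0.01), and the 3′ to 5′ signal ratio of the Gapdh control probe sets, a measure of RNA integrity, was 0.994 with the Tmem132a siRNA and 0.953 with the control siRNA. That of the beta-actin control probe sets was 1.69 and 1.52. Of 17 markers of sympathetic neurons and neuroblastoma, 14 were measured, among them Phox2a, Hand2, Chgb and Stmn2. All 14 had ratios below 0, as did 48.2% of all measured genes, with a median of -0.28 and Ret the lowest at -0.67. The summed signal of the brightest probe set of each marker was 53263.3 on the Tmem132a siRNA array and 64698.5 on the control siRNA array. Nefl and Nefm, markers of neurofilament-bearing neurons, were at most 27.4 on the Tmem132a siRNA array and 10.1 on the control siRNA array. None of 8 fibroblast markers passed the filter, and 1 marker each of glia, of immune cells and of epithelium and endothelium did. These were Mbp at -0.18, Csf1r at -0.10 and Epcam, which was dim and more than 2-fold higher, at 146.1 with the Tmem132a siRNA and 70.9 with the control siRNA (1.04). Of 7 skeletal muscle markers, Myod1 (-0.27) and Acta1 (-1.22) passed. The median of the neuronal markers was thus close to that of the glucose genes described next, and their part in those values was not tested. In bulk RNA, fewer cells of a type and less RNA per cell cannot be told apart.

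Glycolysis splits glucose into pyruvate in the cytosol, and in most tumour lines much of that pyruvate becomes lactate. Flux is set at the glucose transporters, hexokinase and phosphofructokinase, and at the pyruvate dehydrogenase complex, which pyruvate dehydrogenase kinases switch off by phosphorylation. Many of these genes are known targets of the hypoxia-inducible factor HIF-1 and of MYC proteins. Nervous tissue is also known for particular isoforms, such as the transporter GLUT3 and the enolase Eno2.

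Most of the measured genes lay below 0 by small amounts. Of 33 genes, 24 (72.7%) had a ratio below 0, where 48.2% of all 10678 measured genes did. The median ratio was -0.25 over the 33 genes, with quartiles of -0.50 and 0.00, against a median of 0.02 and quartiles of -0.26 and 0.29 over all genes. A total of 7 genes (21.2%) were at least 1.5-fold lower, beside 9.11% of all genes, and 0 were at least 1.5-fold higher, beside 8.82%. At the 2-fold size, 2 genes (6.06%) were lower, beside 2.44% of all genes, and 0 were higher, beside 2.10%. The 2 were the glucose transporter genes Slc2a1 and Slc2a8. With no signal filter, so that the dim genes entered too, 30 of 38 genes were below 0 (78.9%), where 42.2% of all genes were, and the median was -0.24. Signals under 14.5 were raised to it, so genes under it on both arrays, such as Pgam2 and Pdk3, had a ratio of exactly 0. These count as not below 0, and how far they lower the 42.2% was not computed.

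**Figure D1:**
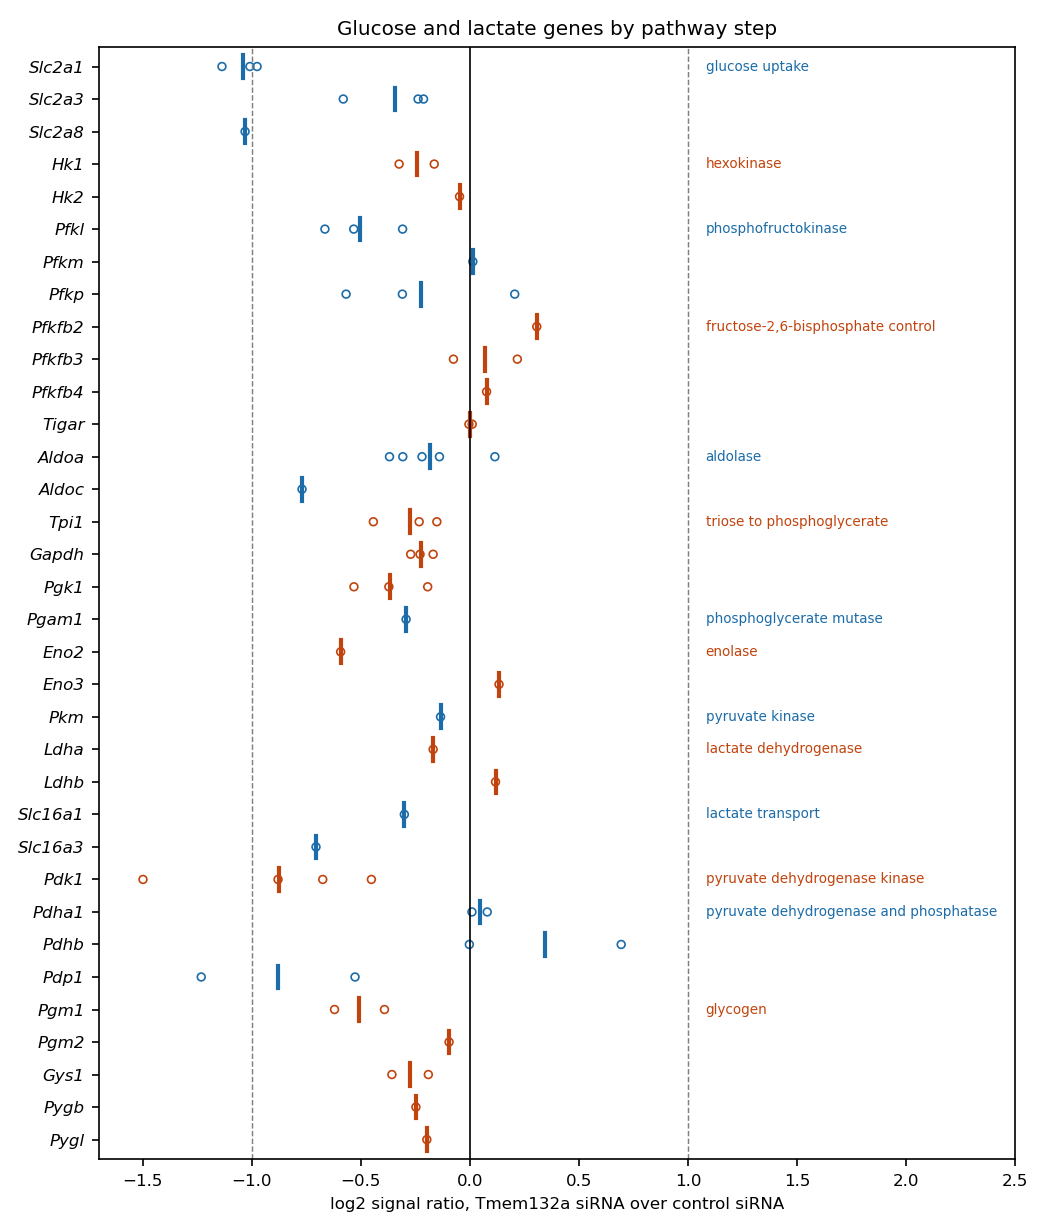
Log2 signal ratio, Tmem132a siRNA over control siRNA (x axis), of 33 glucose and lactate genes and Gapdh, listed down the page by pathway step. Open circles are probe sets, bars are gene means, dashed lines mark a 2-fold difference and colours only separate neighbouring steps. Slc2a1 and Slc2a8 reach -1.04 and -1.03, while the genes that control fructose-2,6-bisphosphate lie between 0.00 and 0.31.

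The same counts were made by brightness. Among the 33 genes, 12 had a probe set with a mean signal of 5000 or more, and 11 of these 12 were below 0, with a median of -0.26 and a range of -0.71 (Slc16a3) to 0.04 (Pdha1). Over all 896 genes as bright, 52.8% were below 0 and the median was -0.02. The other 21 genes had 13 below 0, beside 48.2% of all genes, and a median of -0.20. A share for all genes of lower signal was not computed. Of the 16 genes with several probe sets past the filter, 10 had every probe set below 0 and 1 (Pdha1) had every one above 0. The remaining 5 had probe sets on both sides of 0. How often all genes with several probe sets fell into these groups was not computed. Of the 60 member probe sets past the filter, 48 were below 0, beside 48.2% of all 19316 such probe sets.

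**Figure D2:**
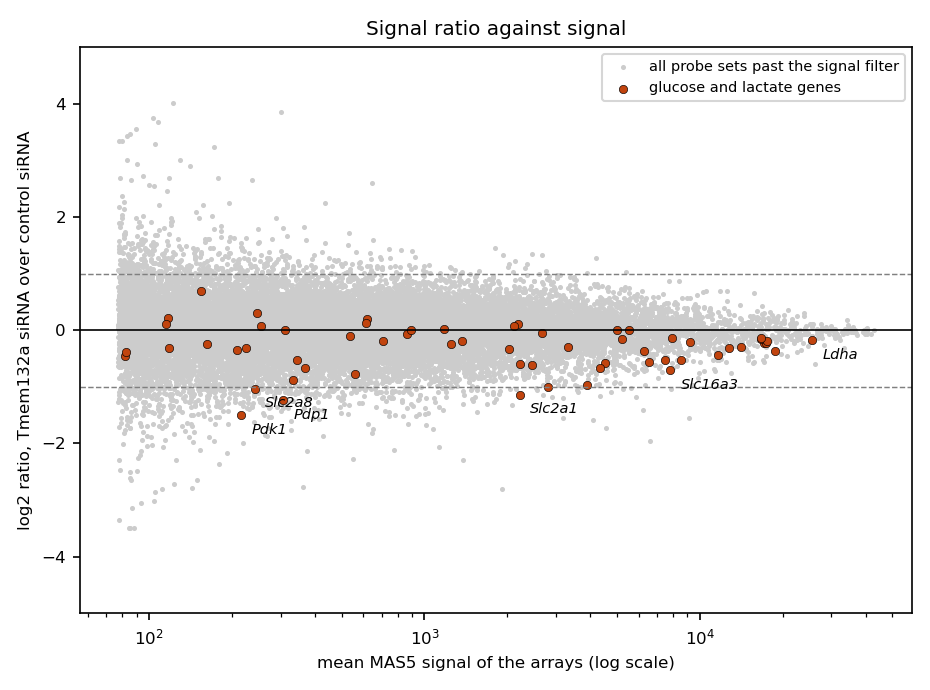
Log2 signal ratio (Tmem132a siRNA over control siRNA, y axis) against mean MAS5 signal of the arrays (x axis, log scale) for all probe sets past the signal filter with 1 gene symbol (grey) and the 60 probe sets of glucose and lactate genes (red). The red points at high signal, such as Ldha at -0.17, lie mostly just below 0, the 3 probe sets of Slc2a1 lie at -1.14 to -0.98, by the dashed line of a 2-fold lower signal, and the 4 of Pdk1 spread from -1.50 to -0.45.

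The promoters of several of these genes are shown because 3 of the lower genes, Slc2a1, Slc16a3 and Pdk1, are textbook HIF-1 targets, and so is Hk2, whose ratio was near 0 (-0.05). They were picked with their ratios known, so they do not stand for HIF-1 targets as a class. RefSeq windows of 300 bases (250 before and 50 after a gene's start, GRCm38.p6) were found for 39 of the 42 genes, and not for Slc2a3, Slc2a4 and Pdp1. Capitals mark the core of the hypoxia response element, searched as ACGTG and GCGTG on both strands, where a match on the other strand reads CACGT or CACGC. The E-box CACGTG, which MYC proteins bind, contains ACGTG and so overlaps it. The windows lie at chr4:119108495-119108794 (+ strand) for Slc2a1, chr11:120948817-120949116 (+ strand) for Slc16a3, chr2:71872974-71873273 (+ strand) for Pdk1 and chr6:82774405-82774704 (- strand) for Hk2, and each is written 5′ to 3′ along its gene.
Slc2a1: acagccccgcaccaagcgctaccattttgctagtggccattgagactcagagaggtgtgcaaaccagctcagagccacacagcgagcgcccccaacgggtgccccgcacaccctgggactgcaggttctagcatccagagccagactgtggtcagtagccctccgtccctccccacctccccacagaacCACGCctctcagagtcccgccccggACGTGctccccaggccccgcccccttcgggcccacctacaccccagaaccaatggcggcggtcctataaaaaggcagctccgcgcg
Slc16a3: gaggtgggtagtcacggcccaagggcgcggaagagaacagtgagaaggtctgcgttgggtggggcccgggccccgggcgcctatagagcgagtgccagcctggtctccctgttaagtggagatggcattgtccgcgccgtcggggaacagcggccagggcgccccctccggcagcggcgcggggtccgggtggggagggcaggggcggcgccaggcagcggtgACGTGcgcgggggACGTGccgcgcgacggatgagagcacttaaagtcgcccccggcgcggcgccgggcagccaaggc
Pdk1: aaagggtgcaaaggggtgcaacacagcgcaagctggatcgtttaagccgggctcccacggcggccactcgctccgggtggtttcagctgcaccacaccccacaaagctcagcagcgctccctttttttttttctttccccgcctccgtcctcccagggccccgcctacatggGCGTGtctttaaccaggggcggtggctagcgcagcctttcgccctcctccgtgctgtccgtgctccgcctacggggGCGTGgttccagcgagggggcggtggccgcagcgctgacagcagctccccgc
Hk2: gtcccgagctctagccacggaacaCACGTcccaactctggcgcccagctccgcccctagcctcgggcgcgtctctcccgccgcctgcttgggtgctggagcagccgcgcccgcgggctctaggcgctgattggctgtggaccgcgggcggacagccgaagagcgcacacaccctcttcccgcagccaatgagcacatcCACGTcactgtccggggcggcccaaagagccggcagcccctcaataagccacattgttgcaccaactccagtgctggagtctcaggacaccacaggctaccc

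Each of these 4 windows held 2 matches. Those of Slc16a3 and Hk2 were all to ACGTG, those of Pdk1 were all to GCGTG, and Slc2a1 had 1 of each. The second RefSeq window of Pdk1 had 0. Among other members, Ldha (ratio -0.17) had 7 matches in 1 window and 2 in the other. Pfkfb3 (0.07) had 4 in 1 window and 1 in the other, and Eno2 (-0.59) had 0. Whether matches go with the ratios was not tested. Of the 44 windows of genes with a ratio, 35 (79.5%) held ACGTG or GCGTG, where 62.8% of 11196 windows of all measured genes and 43.8% of 32851 windows of all genes did. ACGTG alone was in 52.3%, against 26.0% and 19.6%, and the E-box CACGTG was in 11.4%, against 10.1% and 7.15%. The windows of these genes had a median GC content of 61.0%, those of all measured genes 61.3% and those of all genes 52.7%. These matches are letters in a window and say nothing of binding.

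Glucose enters through transporters of the GLUT family, and this step held the lowest ratios. Slc2a1 encodes GLUT1, the widely expressed basal transporter, and its 3 probe sets had the same direction and nearly the same size. Their signals on the Tmem132a siRNA array were 1871, 1386.3 and 2613, against 3764.7, 3049.4 and 5140.6 on the control siRNA array. Every probe set was about 2-fold lower, with ratios of -1.01, -1.14 and -0.98 and a gene ratio of -1.04 (SD over probe sets 0.09), which is 48.6% of the control level. By its brightest probe set alone Slc2a1 was at -0.98, just short of 2-fold.

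Slc2a8, which encodes GLUT8, a transporter of intracellular membranes, was read by 1 probe set at 159.1 with the Tmem132a siRNA and 325 with the control siRNA (-1.03). It is dim, and with a pseudocount of 79.2 added to all signals its ratio was -0.76. Slc2a3 encodes GLUT3, the high-affinity neuronal transporter. Its bright probe sets were at 8563.6 and 3625.3 with the Tmem132a siRNA, against 9923.2 and 5424 with the control siRNA. The gene ratio was -0.34 (SD 0.21 over 3 probe sets), and no probe set of Slc2a3 that passed (-0.58 to -0.21) came within the range of the Slc2a1 probe sets (-1.14 to -0.98). The ratio of Slc2a1 was lower than that of Slc2a3 by 0.70, and level with that of Slc2a8 (difference -0.01). Slc2a4, the insulin-responsive GLUT4 of muscle and fat, was dim on both arrays, with signals of 15.4 and 10.2 on the Tmem132a siRNA array and 73.9 and 41.2 on the control siRNA array.

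**Figure D3:**
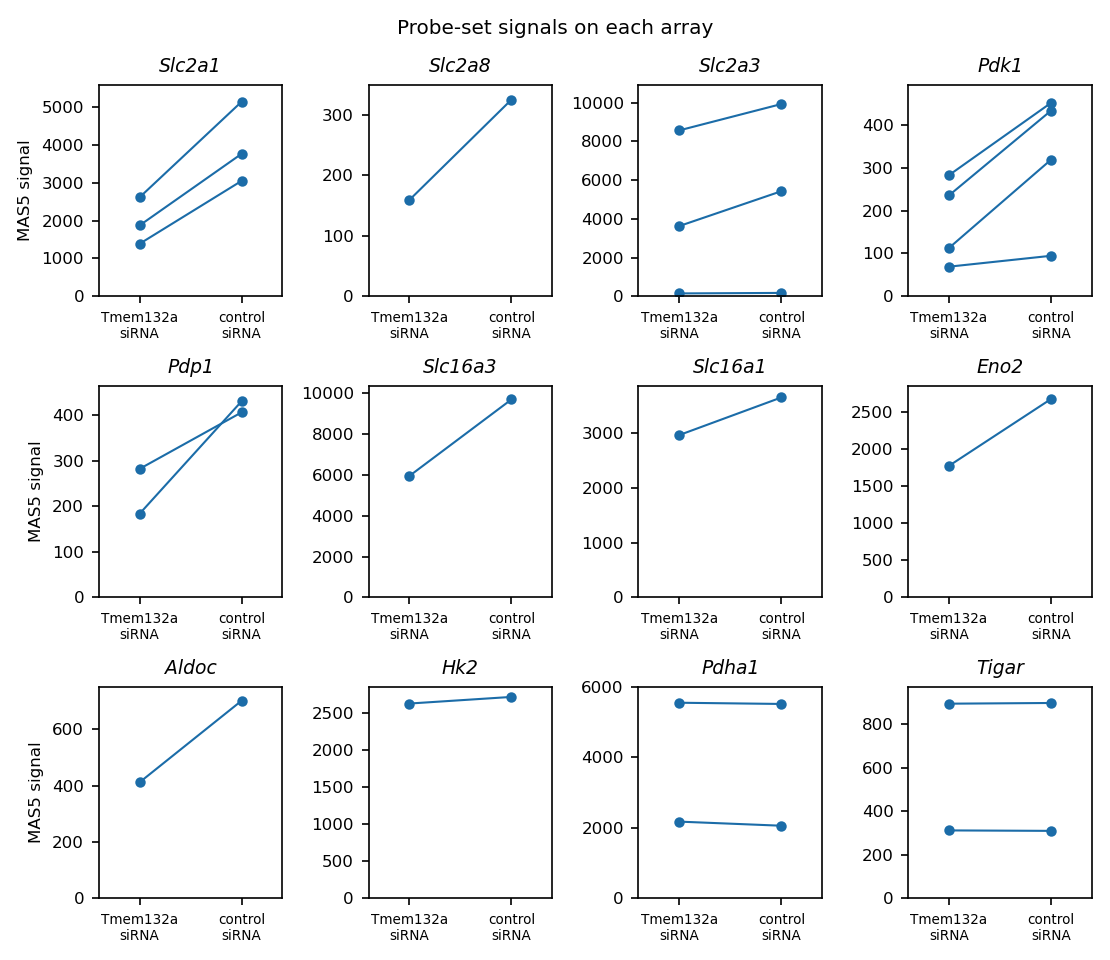
MAS5 signals (y axis, linear from 0) of the probe sets past the filter for 12 genes, on the Tmem132a siRNA array (left of each panel) and the control siRNA array (right), with a line joining the same probe set. Each of the 3 lines of Slc2a1 is lower on the Tmem132a siRNA side (1871, 1386.3 and 2613), while those of Hk2, Pdha1 and Tigar are nearly level.

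Hexokinase traps glucose as glucose-6-phosphate, and both measured isoforms lay close to the control level. Hk1, the main isoform of brain, had signals of 1800.7 and 4935.6 with the Tmem132a siRNA, against 2256.1 and 5528.6 with the control siRNA, a gene ratio of -0.25. Hk2, the inducible isoform of many tumours, was at 2627.9 and 2717.3 (-0.05). The isoforms differed by -0.20 (Hk1 minus Hk2), which is within the spread between probe sets of 1 gene.

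Phosphofructokinase commits fructose-6-phosphate to glycolysis, and its isoforms had ratios from -0.50 to 0.01. Pfkl, the liver type, was at 6990.8 and 3344.5 by its bright probe sets on the Tmem132a siRNA array, against 10113.6 and 5303.2 on the control siRNA array. All 3 of its probe sets were lower, from -0.67 to -0.31, and the gene ratio was -0.50 (70.6% of the control level). Pfkm, the muscle type, was level at 1186.2 and 1175.8 (0.01). Pfkp, the platelet type, had a bright probe set at 5254.4 with the Tmem132a siRNA and 7789.1 with the control siRNA (-0.57). Its probe set at 661.8 and 574.1 lay at 0.21, so that the gene ratio of -0.22 had an SD of 0.39. The ratio of Pfkl was lower than that of Pfkm by 0.52 and lower than that of Pfkp by 0.28.

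Fructose-2,6-bisphosphate activates phosphofructokinase, and the PFKFB enzymes make and break it. This was the 1 group with no gene ratio below 0, at 0.07 for Pfkfb3, the isoform with the highest kinase activity, 0.08 for Pfkfb4 and 0.31 for Pfkfb2. The brightest probe set of Pfkfb3 was at 841 on the Tmem132a siRNA array and 886.5 on the control siRNA array (-0.08), so its sign turned with the choice of probe set. Pfkfb4 was at 261.9 and 248.4. Pfkfb2 was at 271.9 and 219.9, and with no filter, where its 3 dim probe sets entered, its ratio was -0.02. Tigar, known in human cells as a p53 target that removes fructose-2,6-bisphosphate, was level, at 894.6 and 312.1 with the Tmem132a siRNA and 897.8 and 310 with the control siRNA (0.00). Without the signal filter its remaining, dim probe set brought it to -0.21.

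Aldolase splits the 6-carbon sugar. Aldoa, the ubiquitous form, had 5 bright probe sets between -0.37 and 0.11, from 2280.5 to 15857.3 with the Tmem132a siRNA and from 2106.7 to 18464.6 with the control siRNA. Its gene ratio was -0.18 (SD 0.19). Aldoc, the brain form, was at 411.9 and 702.1 (-0.77, 58.7% of the control level), and its other probe set was dim at 6 and 20.3. The ratio of Aldoa was above that of Aldoc by 0.59.

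The enzymes of the lower pathway, from triose phosphate isomerase to pyruvate kinase, had ratios from -0.59 to 0.13. Of 6 measured genes, 5 were below 0, beside 48.2% of all genes, and 1, Eno2, was at least 1.5-fold lower, beside 9.11%. The median was -0.28. Tpi1, triose phosphate isomerase, was at 15928.3, 9838 and 15765.4 with the Tmem132a siRNA, against 18715.1, 13370.2 and 17519.2 with the control siRNA (-0.28). Pgk1, phosphoglycerate kinase, was at 16321.8, 16315.9 and 6125.1, against 21114.8, 18662.7 and 8855.1 (-0.37). Both genes were lower by every probe set. Gapdh, often used as a loading reference, was at 26579.1, 26746.9 and 24121.9 by its control probe sets on the Tmem132a siRNA array, against 29869.9, 31333.7 and 29122.6 on the control siRNA array. Its mean ratio of -0.22 (SD 0.05) lay near that of its pathway neighbours.

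Pgam1, the phosphoglycerate mutase of brain, was at 12656.4 and 15507.2 (-0.29). The muscle mutase Pgam2 was dim on both arrays, at 3.8 and 12.3. Pkm, pyruvate kinase of muscle and tumours, was at 15914.4 and 17469.4 (-0.13), and its M1 and M2 splice forms were not analysed here. Enolase showed the widest gap between isoforms of a glycolytic enzyme. Eno2, the neuron-specific enolase, was at 1778.4 with the Tmem132a siRNA and 2682.4 with the control siRNA (-0.59, 66.3%), while Eno3, the muscle form, was at 643.2 and 586.3 (0.13). The difference of -0.73 (Eno2 minus Eno3) rests on 1 probe set for each gene.

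Lactate dehydrogenase converts pyruvate to lactate, and monocarboxylate transporters carry lactate across the plasma membrane. Ldha was bright and close to the control level, at 24127.3 and 27116.3 (-0.17, 89.0%). Ldhb, the isoform of oxidative tissues, was read by 4 dim probe sets of which 1 passed, at 119.4 and 110.1 (0.12), and with no filter its ratio was -0.19. Slc16a3 encodes MCT4, the lactate exporter of glycolytic cells, and was at 5946.6 with the Tmem132a siRNA and 9698.7 with the control siRNA (-0.71, 61.3%). It was the 1 gene of the 12 brightest that was at least 1.5-fold lower, a size reached by 3.57% of all 896 genes as bright. Slc16a1, which encodes MCT1, was at 2969.7 and 3658.3 (-0.30), and its ratio was above that of Slc16a3 by 0.41.

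The switch between lactate and mitochondrial oxidation held 2 further low genes. Pdk1 encodes a kinase that inactivates pyruvate dehydrogenase. Its 4 probe sets were at 282.5, 235.3, 69.1 and 112.8 on the Tmem132a siRNA array, against 451.1, 433, 94.5 and 318.7 on the control siRNA array. All were lower, but by unequal amounts, from -1.50 to -0.45, and the gene ratio was -0.88 (SD 0.45, 54.5% of the control level). Pdk2, Pdk3 and Pdk4, the other kinases, had 1 dim probe set each, at 34.3, 8.4 and 2.3 with the Tmem132a siRNA and 54.7, 7.6 and 59.6 with the control siRNA.

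Pdp1 encodes the phosphatase that turns the complex back on, and it had nearly the same ratio as the kinase that opposes it. Its probe sets were at 281.8 and 183.2 with the Tmem132a siRNA, against 406 and 430.4 with the control siRNA, with ratios of -0.53 and -1.23 and a gene ratio of -0.88. The enzyme itself was level. Pdha1, the alpha subunit of its first component, was at 5549.8 and 2176.3, against 5515.3 and 2060 (0.04). Pdhb, the beta subunit, was at 4984.1 and 4993.6 by its bright probe set (0.00) and at 191 and 118.1 by its dim one (0.69), so its gene ratio of 0.35 depended on the dim probe set.

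The 5 glycogen genes among the members all lay below 0, from -0.51 to -0.10, beside 48.2% of all genes. The 12 further glycogen genes given below were split, with 6 below 0 and a median of 0.02. Pgm1, phosphoglucomutase, which links glucose-6-phosphate to glucose-1-phosphate, was the lowest, at 1937.1 with the Tmem132a siRNA and 2979.5 with the control siRNA by its bright probe set. Its ratio was lower than that of its relative Pgm2 (-0.10, at 516.6 and 552.2) by 0.41. Glycogen synthase Gys1 was at 658.2 and 751.4 by its brighter probe set (-0.27 over 2 probe sets). The phosphorylases that release glucose from glycogen were at 1138.4 and 1351.3 for Pygb, the brain form (-0.25), and at 1271.3 and 1457.8 for Pygl, the liver form (-0.20).

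The gaps between isoforms of 1 step were set against the spread of probe sets, as the SD that a difference of 2 gene means would have from the 0.39 above and the number of probe sets of each gene. Slc2a1 against Slc2a3 had the widest gap on that scale, -0.70 with an SD of 0.32. Slc2a3 against Slc2a8 (0.69, SD 0.46), Aldoa against Aldoc (0.59, SD 0.43), Eno2 against Eno3 (-0.73, SD 0.56) and Pfkl against Pfkm (-0.52, SD 0.46) were between 1.13 and 1.51 times their SD. The gaps of Slc16a1 against Slc16a3 (0.41, SD 0.56) and Pgm1 against Pgm2 (-0.41, SD 0.48) were smaller than theirs. This spread comes from a single pair of arrays and is no test, so whether isoforms differed in their response was not tested.

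Genes of adjoining pathways were taken from 13 lists, to be read beside a median of 0.02 and a share below 0 of 48.2% over all genes. The mitochondrial lists lay near or above 0. All 6 measured genes of the pyruvate carrier and the rest of the pyruvate dehydrogenase complex had ratios above 0, with a median of 0.36. They ranged from 0.15 (Pdhx, an anchoring subunit) to 0.52 (Pdpr, a regulator of the phosphatase), and 0 of them reached 1.5-fold. The brightest of the 4 Pdpr probe sets differed less, at 939.5 with the Tmem132a siRNA and 874.2 with the control siRNA. The 15 genes of the tricarboxylic acid cycle had a median of 0.05, with 5 below 0, Idh2 lowest at -0.60 and Suclg2 highest at 0.37. The 9 genes of the glycerol phosphate and malate-aspartate shuttles had a median of -0.02, from -0.21 for Mdh1 to 0.35 for Gpd1l.

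The other lists of sugar and lactate metabolism were mixed. All 6 further lactate and monocarboxylate genes had ratios below 0, with a median of -0.28, from -0.75 for the carrier Slc16a4 to -0.07 for Slc16a13. Among them Bsg, singled out after its value was seen, encodes basigin, the partner that MCT1 and MCT4 need to reach the membrane. It was at 3748.9 with the Tmem132a siRNA and 6048.1 with the control siRNA (-0.69). Emb, in the same list, was closer to the control level, at -0.12 over 2 probe sets. Its brightest probe set was slightly higher, at 9641.4 with the Tmem132a siRNA and 9178.8 with the control siRNA. Pentose phosphate genes had 5 of 8 below 0 and a median of -0.25, from -0.47 for Prps2 to 0.65 for Rpe. The brighter of the 2 Rpe probe sets differed less, at 1128.8 with the Tmem132a siRNA and 900.7 with the control siRNA. Of 4 gluconeogenic genes, 3 were below 0, with G6pc3 lowest at -0.89 and Pck2 highest at 0.08. Their median of -0.34 became 0.00 with no signal filter.

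Further glycogen genes had 6 of 12 below 0 and a median of 0.02, from -0.73 for the branching enzyme Gbe1 to 0.63 for Phka2, a phosphorylase kinase subunit. The 7 hexosamine genes had a median of -0.02, from -0.30 for Gfpt1 to 0.50 for Gnpnat1. By the brightest of its 3 probe sets Gfpt1 was nearly level, at 2847 with the Tmem132a siRNA and 2812.2 with the control siRNA. Other glucose transporters were mostly dim, and of the 3 measured, Slc2a6 was 2.96-fold lower, at 83.9 with the Tmem132a siRNA and 248.2 with the control siRNA. The other 2 were above 0, Slc2a9 at 0.74 (124.7 and 74.6) and Slc5a2 at 0.28 (146.3 and 120.3), so that the list median was 0.28. Slc2a9 passed the filter with the control siRNA array below it, and the sign of this median depends on that gene. Adpgk, an ADP-dependent glucokinase, was the 1 measured gene among the other hexokinases, at 0.60 over 2 probe sets. Its brightest probe set was nearly level, at 499.4 with the Tmem132a siRNA and 484.9 with the control siRNA. Its ratio thus depended on the dimmer one. Over the 13 lists, 2 of 87 measured genes (2.30%) were at least 2-fold lower, Slc2a6 and Tkfc, which is near the 2.44% of all genes, and 0 were at least 2-fold higher. Tkfc passed the filter with the Tmem132a siRNA array below it (58.7 and 162.3).

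**Figure D4:**
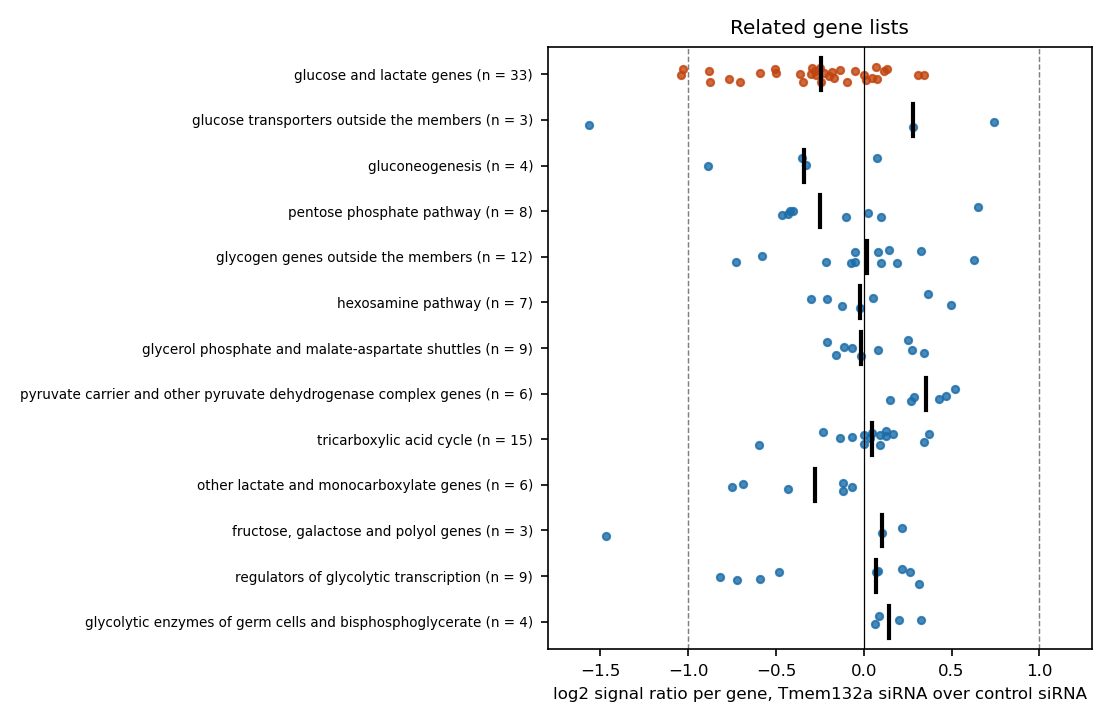
Log2 signal ratio per gene (Tmem132a siRNA over control siRNA, x axis) for the 33 measured glucose and lactate genes (red) and for the 12 related lists with more than 1 measured gene (blue), 1 list per line. Black bars are list medians and dashed lines mark 2-fold. The pyruvate carrier and dehydrogenase complex genes all lie above 0 (median 0.36) and the other lactate and monocarboxylate genes all below 0 (median -0.28).

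Regulators of glycolytic transcription did not share a direction, with 4 of 9 below 0, beside 48.2% of all genes, 3 at least 1.5-fold lower, beside 9.11%, and a median of 0.07. Hif1a, the oxygen-regulated subunit of HIF-1, was the lowest at -0.82 (mean of 3 probe sets). Its brightest probe set was at 2845.1 with the Tmem132a siRNA and 5542.4 with the control siRNA. Myc was the highest at 0.31, at 3070.6 and 2473.3. Mycn, the MYC gene known from neuroblastoma, went the other way, at -0.48 over 2 probe sets, the brighter one at 1427 and 1896.8. Hif1a activity is controlled mainly through the stability of its protein, which the arrays do not measure, and the part of these genes in the ratios above was not tested.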

How the data were processed

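Total RNA of 2 Neuro2a cultures was hybridised to 1 array each. The deposited numbers are intensity values, 1 linear signal per probe set, which the authors obtained from MAS5, as the submitters' processing notes and the series design state. The version and scaling target are not given in the sources used here. Groups were read from the sample titles.

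Computation used Python 3.11.15 with numpy 2.4.6, pandas 2.3.3 and statsmodels 0.14.6, and matplotlib 3.10.9 for plots. The 64 Affymetrix control probe sets were left out of all gene values. Arrays were scaled to equal 2% trimmed means (497.442 with the Tmem132a siRNA and 497.373 with the control siRNA as deposited). Signals under the 20th percentile (14.5) were raised to it. Symbols came from the platform annotation, and 34945 of 45037 probe sets had exactly 1. Gene ratios used probe sets with a mean signal at or above the median, and sizes of 1.5-fold and 2-fold were counted. The procedure was checked on simulated data with planted differences larger than 2-fold, scored at the 2-fold size. The 1.5-fold counts, the medians and the shares by sign were not checked in this way. The number of arrays limits the precision.

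All members were named, and of related lists the genes past 2-fold or otherwise the highest and lowest. Slc2a9, Slc5a2, Bsg, Emb and Mycn were named beyond this rule, with their values known. The members and lists were chosen with earlier results of these data known.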

Additional observations from a re-analysis of the deposited data

How the results depend on the processing

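Ratios were recomputed on signals as deposited, with quantile normalization, with the median ratio set to 0, with a loess of span 0.3, with no filter or one at the 75th percentile (462.8), with no floor or a pseudocount of 79.2 in its place, by the brightest probe set, and leaving out x, s and a probe sets. An alternative chosen after seeing the data counted Gapdh with its control probe sets. Over these, the median of the glucose and lactate genes lay between -0.25 and -0.20. The number at least 1.5-fold lower lay between 5 of 25 genes, without x, s and a probe sets, and 10 of 38, with no filter. Beside these stood 9.75% and 12.1% of all genes, a share that ran from 5.16% to 12.1% over the settings. At least 1.5-fold higher were 0, beside 8.82% of all genes in the main setting. The share of the glucose and lactate genes below 0 ran from 72.0% to 88.9%, where that of all genes ran from 42.2% to 48.9%. The 42.2% is that with no filter, where genes under the floor on both arrays count as not below 0. The number at least 2-fold lower was 2 in the main setting, beside 2.44% of all genes, and in the alternatives not named next. It was 4 of 38 with no filter, beside 4.84%, where the dim Slc2a4 (-1.89) and Pdk4 (-2.04) entered. Each had a probe set under the floor of 14.5 on the Tmem132a siRNA array, so the floor entered both ratios. It was 1 with the 75th percentile filter, which removed Slc2a8, beside 1.31% of all genes. With the pseudocount, where Slc2a8 was at -0.76, it was 1, beside 0.74%. By the brightest probe set, where Slc2a1 was at -0.98, it was 1, beside 2.98%. The signs of Ldhb, Pdhb, Pfkfb2, Pfkfb3, Pfkm and Tigar turned in at least 1 alternative, and those of the other 27 genes in 0 of the alternatives that gave them a value. No paired analysis was possible because each group has 1 array.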

Other observations

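Probe sets shared by a glucose gene and other symbols were not used above. The brightest one shared by Gapdh and 4 other symbols was at 32258.8 with the Tmem132a siRNA and 33551.5 with the control siRNA (-0.06), smaller than the -0.22 of the Gapdh control probe sets. The others shared by Gapdh with 1 symbol lay at -0.06 (728.1 and 761.3) and 0.26 (315.6 and 263.8). A probe set shared by Hk1 with 5 other symbols, among them ribosomal Rpl17 copies, was at 26958.1 and 27506.7 (-0.03). Which of these transcripts it reads was not determined.

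A list of germ-cell isozymes, enzymes of bisphosphoglycerate and other relatives of glycolytic enzymes had all 4 measured ratios above 0, with a median of 0.14. They ran from 0.07 for Minpp1, an inositol phosphate phosphatase, to 0.33 for Eno4, an enolase of sperm in mouse. Of 3 measured genes of fructose, galactose and polyol metabolism, Tkfc, a kinase of the fructose pathway, was 2.77-fold lower (58.7 with the Tmem132a siRNA, 162.3 with the control siRNA).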
